A study of Caenorhabditis elegans with 40 samples.

Results

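The UDP-glucuronosyltransferases (ugt genes) of Caenorhabditis elegans were followed through 40 RNA-seq libraries of whole animals on day 1 of adulthood. Membership was taken from the gene symbol alone: every gene whose symbol starts with ugt- was included, which gave 66 of the 20956 genes in the deposited table. The libraries came from 5 genotypes, each on bacteria with an empty vector or with RNA interference (RNAi) against repo-1, and each of the 10 groups held 4 libraries. The genotypes were wild type (the N2 strain), clk-1(qm30), which lacks normal activity of a hydroxylase of ubiquinone synthesis, eat-2(ad1116), a slow-feeding strain used as a model of dietary restriction, age-1(hx546), altered in the phosphoinositide kinase of the insulin pathway, and raga-1(ok386), altered in a GTPase of the nutrient-sensing TOR pathway. The sample titles give the mutant strains as MQ130 (clk-1), DA1116 (eat-2), TJ1052 (age-1) and VC222 (raga-1). Feeding on the vector or RNAi bacteria began at hatching in all groups, and each mutant was represented by 1 allele. repo-1 encodes a component of the spliceosome, and the study asks how far interventions that lengthen life depend on splicing factors early in life.

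UDP-glycosyltransferases are enzymes of the endoplasmic reticulum that join a sugar from a UDP-sugar donor to small lipophilic molecules. In detoxification this conjugation is called phase 2: it follows the oxidation or reduction of the compound by cytochromes P450 and short-chain dehydrogenases (phase 1) and precedes export by ABC transporters (phase 3). In C. elegans the intestine is the main site of these reactions, many of the conjugates carry glucose rather than glucuronic acid, and the same enzyme class also modifies small molecules made by the animal itself.

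Recovered library sizes ran from 7.43 M to 40.8 M reads, of which the ugt genes together took between 0.0384% and 0.159%. The targeted gene was lower in every RNAi group: repo-1 stood at 37.96% of its own empty vector mean in wild type, 40.1% for clk-1, 46.3% for age-1, 47.7% for raga-1 and 52.7% for eat-2. The raga-1 gene stood at 2.55% of its wild type level in the raga-1 mutant, and the clk-1 gene at 34.1% in the clk-1 mutant. Animals were sampled whole, so fewer cells of a type and less RNA per cell cannot be told apart. Of the markers read for intestine, germline, sperm, hypodermis, pharynx, muscle, neurons, glia and embryo, only delm-1 (glia), med-1 and hlh-27 (embryo) were listed at 0 in all libraries of a group. Nothing in the labels tells whether libraries of a group were grown as separate cultures, and the p-values then cover the spread between these samples only.

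Most ugt genes lie on chromosome V, which held 41 of the 66, and 12 lie on chromosome IV, 5 on I, 4 on X, 3 on III and 1 on II (WBcel235). Many sit beside one another: 36 members fell into 11 runs in which the start of each gene lay within 20 kb of the next, and 30 stood alone. The largest run held ugt-12, ugt-11, ugt-9, ugt-10, ugt-8, ugt-14 and ugt-13 between positions 4887165 and 4911399 of chromosome V. The next, at 7139475 to 7169281 of the same chromosome, held ugt-40, ugt-37, ugt-38, ugt-39, ugt-41 and ugt-36. Neighbouring copies can share reads in ways a table of reads per gene does not show, and such sharing was not measured here. Some members also overlap other genes, by 1012 bases in ugt-65 with col-130, 424 in ugt-50 with nhr-26 and 309 in ugt-22 with srz-29, in each case on the opposite strand. The library kit kept the strand, but whether counting used it is not given in the sources used here.

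Of the 66 members, 52 had a mean of at least 10 normalized counts over the 40 libraries and were tested. Of these 52, 43 kept a group mean of at least 10 in all 10 groups. The other 9 (ugt-4, ugt-14, ugt-18, ugt-24, ugt-40, ugt-43, ugt-57, ugt-65 and ugt-66) fell below that in at least 1 group, so they passed partly through the groups in which they were high. The 14 members below the minimum had means between 0.0485 and 8.14, and 7 of them did not exceed 10 in any library. They are ugt-3, ugt-10, ugt-15, ugt-27, ugt-33, ugt-34, ugt-35, ugt-36, ugt-37, ugt-38, ugt-42, ugt-55, ugt-56 and ugt-59, and ugt-34 and ugt-35 were listed at 0 in all 4 wild type libraries on empty vector.

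In wild type on empty vector a few members stood well above the rest. Per kilobase of exon, ugt-22 was highest at 718 normalized counts per kb (701 to 744 over the 4 libraries). ugt-22 (chromosome IV, positions 13639260 to 13644567, plus strand) has been linked to the response of the worm to the anthelmintic albendazole. Its libraries lay above all those of the next member, ugt-64, at 623 per kb, while ugt-64 and ugt-62, at 622 per kb, overlapped. After a gap came ugt-47 at 450.2, ugt-12 at 428, ugt-58 at 406 and ugt-63 at 356 per kb, each overlapping its neighbour in that order. The next member, ugt-46, stood apart below them at 237 per kb, and from there to ugt-23, the member ranked 14, each range overlapped the next.

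The genotype changed which member led. ugt-62 had the highest per-kb level in both clk-1 groups (6357 and 6356) and, on empty vector, in age-1 (607) and eat-2 (746). In eat-2 on repo-1 RNAi it was ugt-32, at 727 per kb, a member that stood at only 21.6 per kb in wild type on empty vector. ugt-22 led in the other 5 groups, and in raga-1 on RNAi ugt-41 came next to it, at 820 against 905 per kb. Summed over all 66 members, the normalized counts were 24139 ± 1527 (SD, n = 4) for clk-1, 12315 ± 808 for raga-1, 11578 ± 470 for wild type, 9699 ± 171 for eat-2 and 9654 ± 597 for age-1 on empty vector. On RNAi the sums were 23539 ± 1638, 17670 ± 383, 9477 ± 279, 10156 ± 219 and 8245 ± 427 in the same order. The 4 clk-1 libraries on empty vector all lay above every library of the other genotypes, and the raga-1 libraries on RNAi (17142 to 18037) all lay above those on empty vector (11115 to 12864).

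**Figure D1:**
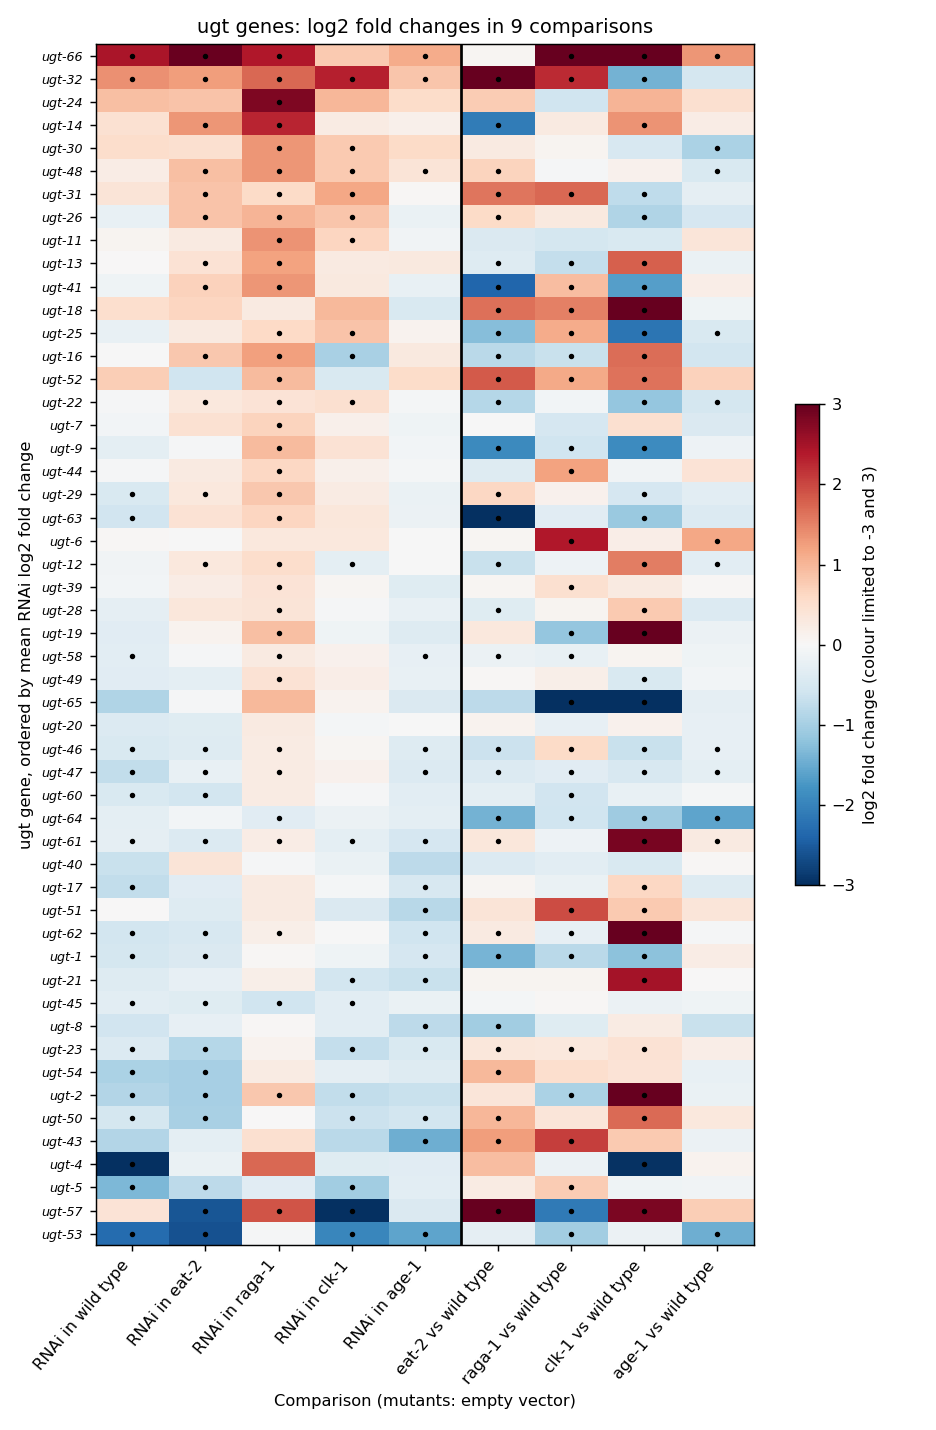
Log2 fold change of the 52 tested ugt genes (rows) in the 5 comparisons of repo-1 RNAi with empty vector (left block) and in the 4 comparisons of a mutant with wild type on empty vector (right block), with colours limited to -3 and 3 and a black dot where the adjusted p was under 0.05. The raga-1 column of the left block is red in most rows, with 32 members higher and 2 lower, while the wild type column has 2 higher and 18 lower.

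Under repo-1 RNAi the family moved in different directions in different genotypes. A gene was called when its Benjamini-Hochberg adjusted p from limma, over the 12327 genes tested in that comparison, was under 0.05. In wild type 2 members (ugt-32 and ugt-66) rose and 18 fell, where 10.1% of all tested genes rose and 12.9% fell. In raga-1 the split was the other way, with 32 higher and 2 lower, where 38.2% of all genes rose and 33% fell. The remaining genotypes gave 12 up and 14 down in eat-2 (all genes 16.2% and 21.4%), 8 and 11 in clk-1 (23.8% and 22.5%) and 3 and 14 in age-1 (10.6% and 10.2%). The 20 calls in wild type became 13 without replicate 4, and the 17 in age-1 became 8 without replicate 3.

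The median log2 fold change over the 52 members was -0.28 in wild type, -0.23 in age-1 and 0.46 in raga-1, beside medians over all tested genes of -0.02, 0.00 and 0.10. After quantile normalization, which moved the all-gene median in raga-1 from 0.10 to -0.07, the members' medians were -0.25, -0.21 and 0.24. In raga-1, 44 of the 52 members lay above the median of all genes. The eat-2 and clk-1 medians, -0.03 and 0.02, lay near 0 and changed sign under that scaling. In eat-2 the split of calls depended on it too: 19 up and 10 down after quantile normalization, against 12 and 14. Averaged over the 5 genotypes, 18 members rose and 20 fell (all genes 31.4% and 34.2%).

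**Figure D2:**
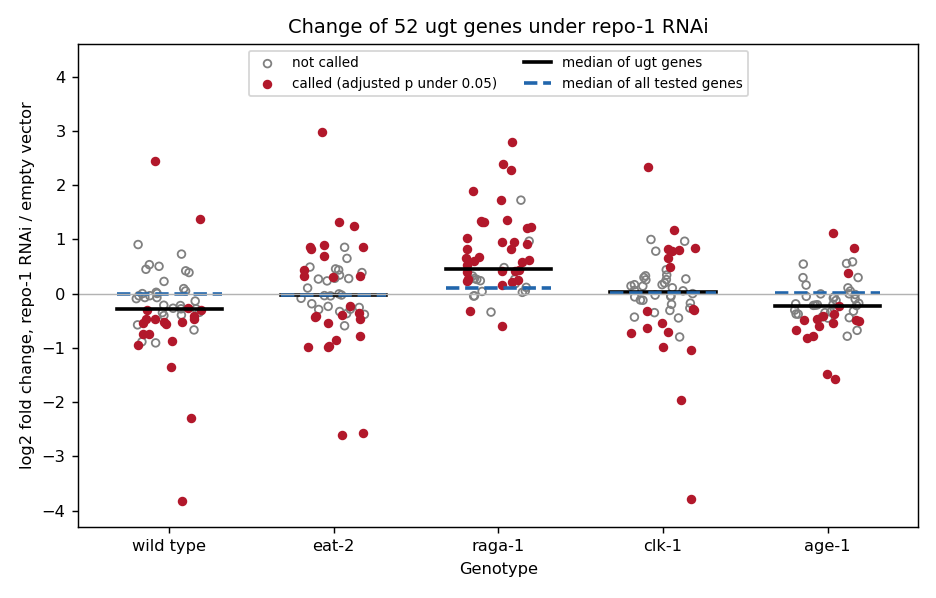
Log2 fold change of repo-1 RNAi over empty vector for each of the 52 tested ugt genes in each genotype, filled where the adjusted p was under 0.05, with the median of the ugt genes (black line) and of all tested genes (blue dashed line). In raga-1 most points and the ugt median, 0.46, lie above 0, while in wild type and age-1 the ugt medians are -0.28 and -0.23.

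ugt-32 was the only tested member called higher under RNAi in all 5 genotypes, and ugt-48 and ugt-66 were called in 4. ugt-66 (chromosome III, positions 6192116 to 6194580, minus strand) was scarce in wild type on empty vector, at 3.44, 6.75, 13.2 and 1.25 normalized counts in libraries 1 to 4, and rose to 35.8, 23.7, 32.02 and 31.1 on RNAi. In raga-1 it started far higher, at 98.7, 113.8, 162 and 155, and reached 744, 685, 646 and 665. No RNAi library overlapped an empty vector library in either genotype. The log2 fold changes were 2.44 ± 0.36 in wild type and 2.39 ± 0.36 in raga-1 (SE here and after every log2 fold change, on the scale of the count plus 1, which understates the change of scarce genes; adjusted p = 3.36e-06 and 3.7e-07, limma).

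In eat-2 the ugt-66 counts went from 2.63, 6.10, 12.2 and 2.91 to 46.2, 35.3, 54.2 and 52.6, a log2 fold change of 2.97 ± 0.36. In age-1 the change was 1.11 ± 0.36 (adjusted p = 0.0236), a call that was lost when replicate 2, 3 or 4 was left out (adjusted p = 0.0924, 0.0626 and 0.0833). In clk-1 the counts were 45.6, 52.1, 32.7 and 53.8 on empty vector and 66.5, 89.0, 94.5 and 67.6 on RNAi. These groups did not overlap, but the log2 fold change of 0.78 ± 0.36 did not pass the test (adjusted p = 0.0704).

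ugt-32 (chromosome V, positions 3841794 to 3844007, minus strand) differed widely between the genotypes. Its wild type counts were 34.4, 33.7, 42.8 and 31.2 on empty vector and 114.1, 90.9, 96.1 and 76.4 on RNAi. In eat-2 they were 545, 729.6, 382 and 415 and 1227, 1424, 1104 and 1040.5, and in clk-1 12.9, 16.7, 12.9 and 8.97 and 68.5, 59.3, 68.1 and 74.9. Every RNAi library exceeded every empty vector library in these 3 genotypes, and the clk-1 libraries on RNAi still lay below the wild type libraries on RNAi. The log2 fold changes were 1.38 ± 0.18 for wild type, 2.33 for clk-1, 1.72 for raga-1, 1.25 for eat-2 and 0.83 for age-1, with the same SE. The clk-1 change exceeded the wild type change by 0.96 ± 0.26 (adjusted p = 0.00527). In raga-1 the counts rose from 176, 155, 180.1 and 170.0 to 652, 491, 617 and 514, and in age-1 from 32.5, 23.96, 17.6 and 24.8 to 42.4, 34.3, 47.6 and 53.6.

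ugt-48 (chromosome V, positions 5545669 to 5548062, minus strand) overlaps cft-1 by 121 bases on the opposite strand. It changed little in wild type, from 113.6, 119.7, 146 and 111 to 144, 123, 156 and 148, and the log2 fold change of 0.22 ± 0.11 did not pass (adjusted p = 0.147). In raga-1 it rose from 98.7, 134, 121 and 125 to 289.6, 312, 293 and 310.4, a log2 fold change of 1.33 ± 0.11. The groups were far apart in raga-1 and overlapped in wild type, and the difference between the 2 effects was 1.11 ± 0.16 (adjusted p = 4.06e-07). The changes in eat-2, clk-1 and age-1 were 0.90, 0.79 and 0.38, and the age-1 call was lost without replicate 2, 3 or 4.

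ugt-31 (chromosome I, positions 2333338 to 2338693, plus strand) rose most in clk-1, from 32.7, 41.7, 35.2 and 37.2 to 80.6, 69.2, 104 and 83.5, a log2 fold change of 1.17 ± 0.16 with no overlap. It also rose in eat-2, by 0.86, from a range of 177 to 206 on empty vector to one of 314 to 388 on RNAi, and in raga-1, by 0.58, where the groups overlapped. In age-1 it stayed at 41.5 to 66.7 and 41.9 to 65.5, with a log2 fold change of 0.05 ± 0.16, and in wild type the change of 0.39 ± 0.16 missed the threshold (adjusted p = 0.0734). ugt-13, the last member of the largest run, rose in raga-1 from 155, 138, 144 and 182 to 398, 320.1, 331 and 385 (1.21 ± 0.13) and in eat-2 by 0.43. Its wild type change was 0.02 ± 0.13. Besides ugt-13, ugt-31, ugt-32, ugt-48 and ugt-66, 3 less abundant members had a positive change in all 5 genotypes, namely ugt-14, ugt-24 and ugt-30. The share of all genes with such a pattern is not given here.

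**Figure D3:**
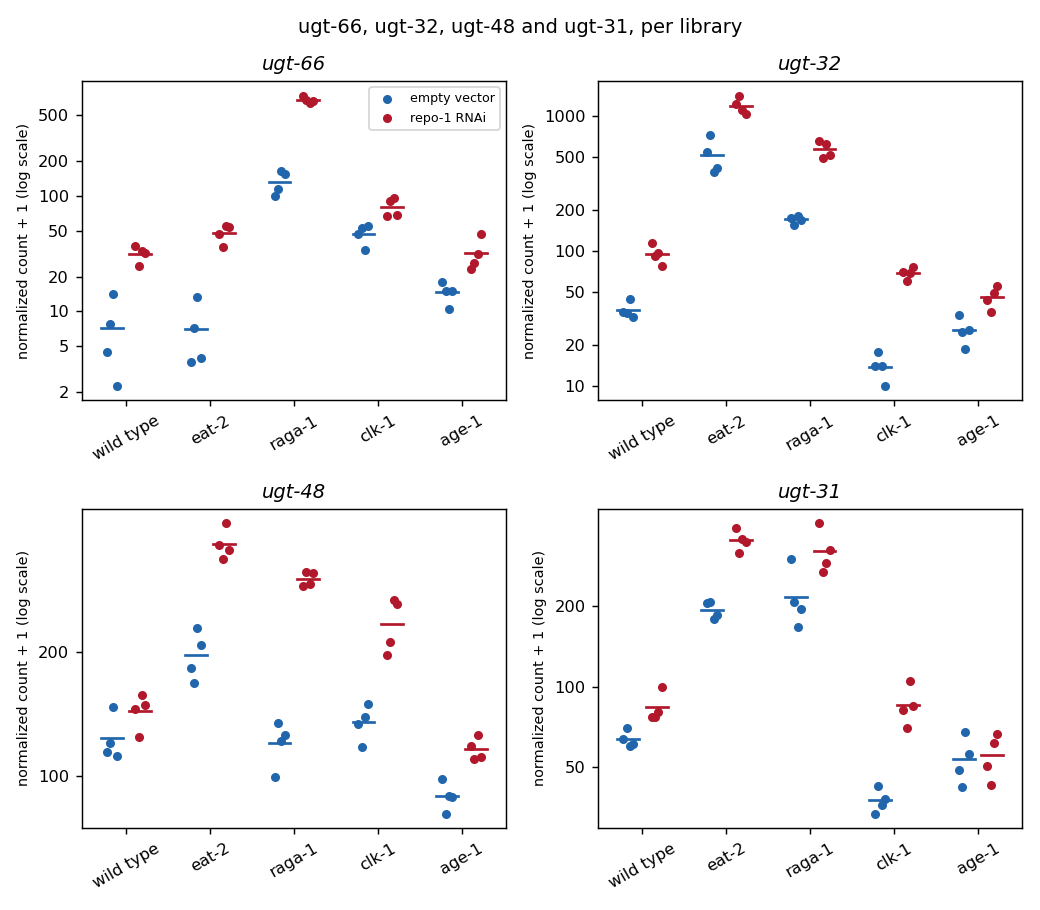
Normalized count plus 1 on a log axis in every library of ugt-66, ugt-32, ugt-48 and ugt-31, by genotype, with empty vector in blue, repo-1 RNAi in red and bars at the group means plus 1. For ugt-32 the red points lie above the blue ones in each of the 5 genotypes, from 12.9 to 67.7 on average in clk-1 and from 518 to 1199 in eat-2.

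The members that fell in wild type under RNAi included several of the most abundant. ugt-47 (chromosome V, in a run with ugt-17) fell from 816, 666, 752 and 751 to 442, 453, 426 and 448, a log2 fold change of -0.75 ± 0.08. Its neighbour ugt-17 fell from 112.8, 112.9872, 92.3 and 131 to 75.5, 57.3, 74.1 and 58.8, by the same -0.75 ± 0.14. In neither did an RNAi library reach the lowest empty vector library. In raga-1, ugt-47 moved the other way, from 509, 608, 626 and 632 to 675, 741, 690.3 and 698 (0.24 ± 0.08, adjusted p = 0.00467), and for ugt-17 the change was 0.26 ± 0.14 (adjusted p = 0.0854). In age-1 both fell, with log2 fold changes of -0.41 and -0.48.

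ugt-62 (chromosome III, positions 4537281 to 4540623, minus strand) fell in wild type from 1151, 941, 1104 and 1012 to 656, 758, 693 and 772 (-0.55 ± 0.07), in eat-2 from a range of 1203 to 1323 on empty vector to one of 872 to 944 on RNAi (-0.47) and in age-1 from a range of 989 to 1065 on empty vector to one of 648 to 717 on RNAi (-0.60). The groups did not overlap in any of these 3 genotypes. In clk-1, where it was most abundant, RNAi left it at 10748 ± 1016 (SD, n = 4) against 10750.5 ± 842 on empty vector, and in raga-1 the change was 0.16 ± 0.07 (adjusted p = 0.0281 with limma and 0.182 with edgeR). ugt-58 fell in wild type (-0.31) and age-1 (-0.24) and rose in raga-1 (0.27). Its wild type counts were 726, 633, 718 and 715 and 564, 572, 538 and 579, without overlap.

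In all, 5 members were called lower in at least 4 genotypes: ugt-23, ugt-45, ugt-50, ugt-53 and ugt-61 (the share of all genes is not given here). For ugt-23 the fall was widest in eat-2, from 283, 258, 293 and 306 to 160.1, 124, 181 and 169 (-0.86 ± 0.10), and in raga-1 the counts of 278 to 288 and 283 to 338 overlapped (0.11 ± 0.10). ugt-50, which overlaps nhr-26 on the other strand, went from 423, 462, 445 and 353 to 185, 204, 246 and 228 in eat-2 (-0.96 ± 0.16) and from a range of 604 to 724 on empty vector to one of 379 to 518 on RNAi in clk-1 (-0.64). In raga-1 its means were 276 ± 61.6 and 275 ± 19.8 (SD, n = 4), a log2 fold change of 0.02 ± 0.16, and its age-1 call was lost without replicate 2 or 3 (adjusted p = 0.0538 and 0.147). ugt-45 differed from the other 4 in that its largest fall was in raga-1, from 392, 340.0, 327 and 316 to 207, 250.3, 240.0 and 212 (-0.59 ± 0.09), and it was the only member called lower in both wild type and raga-1. Its log2 fold changes were -0.31, -0.36 and -0.32 in wild type, eat-2 and clk-1, all called, and in age-1 the change was -0.19 ± 0.09 (adjusted p = 0.127).

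ugt-61 fell in age-1 from 294, 263, 279 and 266 to 197, 188, 201 and 193 (-0.50 ± 0.08) and in eat-2 from a range of 262 to 313 on empty vector to one of 205 to 246 on RNAi (-0.42). Its fall in wild type (-0.26 ± 0.08) did not pass after quantile normalization (adjusted p = 0.0568). In raga-1 every RNAi library lay above every empty vector library (0.21 ± 0.08, adjusted p = 0.0167), but this call was lost after quantile normalization (0.01, adjusted p = 0.923) and with edgeR (0.0753). ugt-64, second in abundance in wild type, had a negative change in all 5 genotypes, and the one called was in raga-1 (-0.33 ± 0.14, adjusted p = 0.0382), lost after quantile normalization (0.125) and without replicate 2, 3 or 4.

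ugt-53 (chromosome V, positions 2849343 to 2852028, plus strand), chosen after its values were seen because its mean lies below the minimum for named members, fell most of these 5. In wild type it went from 133, 116, 133 and 93.6 to 20.7, 17.8, 29.3 and 26.0 (-2.30 ± 0.29), and in eat-2 from a range of 88.1 to 114.4 on empty vector to one of 6.77 to 23.5 on RNAi (-2.60). In clk-1 and age-1 the log2 fold changes were -1.96 and -1.57, also called. No RNAi library overlapped empty vector in these 4 genotypes. In raga-1 the empty vector counts of 58.7, 60.2, 49.5 and 58.1 were already below those of wild type, and RNAi gave 86.2, 42.7, 42.4 and 57.6, a log2 fold change of -0.04 ± 0.29. The raga-1 effect lay above the wild type effect by 2.26 ± 0.42 (adjusted p = 2.77e-05).

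In raga-1 the RNAi effect lay above the wild type effect in most tested members. The difference between the raga-1 and the wild type effect was called positive in 38 of the 52 members and negative in 0, where 28.4% of all tested genes were called positive and 27.2% negative. With edgeR 33 members were called, of which 32 were among the limma calls. After quantile normalization, which moved the all-gene median of this comparison from 0.12 to -0.05, the calls were 23 positive and 1 negative. Members' median difference was 0.72 (0.54 after quantile normalization).

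Of the 18 members that fell in wild type, 15 had a positive change in raga-1 and 8 were called higher there: ugt-2, ugt-29, ugt-46, ugt-47, ugt-58, ugt-61, ugt-62 and ugt-63. Without raga-1 empty vector library 1, ugt-2 (0.47 ± 0.24, adjusted p = 0.084) and ugt-62 (0.11 ± 0.07, adjusted p = 0.153, limma) lost the call in raga-1. Among all 1595 genes that fell in wild type, 33.9% had a positive change in raga-1 and 20.5% were called higher. After quantile normalization the counts were 9 and 6 of 18, beside 26.6% and 16.3% of the 1341 genes that then fell in wild type. The 2 comparisons share no library. With edgeR on recovered reads the counts were 14 and 6 of 18. For the remaining mutants the shares of the 18 with a positive change lay near those of the 1595 genes: 2 of 18 in eat-2 (11.1% beside 10.97%), 5 in clk-1 (27.8% beside 22.7%) and 0 in age-1 (beside 2.32%).

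The member with the largest difference that met the rule for naming was ugt-2. Its mean passed the minimum for named members through the clk-1 groups alone. The group means of ugt-2 were 535 in clk-1 on empty vector and 319 in clk-1 on RNAi. Its highest mean in any other group was 74.6, in eat-2 on empty vector. In wild type it fell from 67.1, 49.7, 52.7 and 58.7 to 30.2, 41.5, 25.6 and 26.9 (-0.87 ± 0.26, a call lost without replicate 3 or 4, adjusted p = 0.0801 and 0.0824), and in raga-1 it rose from 13.3, 44.2, 35.8 and 31.5 to 42.0, 52.4, 35.5 and 88.2 (0.82 ± 0.26, lost after quantile normalization at 0.12, adjusted p = 0.702). The raga-1 groups overlapped, and the difference between the effects was 1.69 ± 0.37 (adjusted p = 0.000287). ugt-41 (chromosome V, positions 7161068 to 7163595, minus strand) had groups further apart: 592, 566, 583 and 603 on empty vector and 1562, 1369.7, 1477 and 1475 on RNAi in raga-1 (1.32 ± 0.15), against 318, 284, 328 and 311 and 261, 314, 266 and 286 in wild type (-0.14 ± 0.15). The difference was 1.46 ± 0.21 (adjusted p = 5.04e-07).

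Among the other members that rose in raga-1, ugt-63 went from 539, 483, 331 and 412 to 818, 821, 506 and 644 (0.65 ± 0.18, with overlap) while it fell in wild type from 559, 463, 579.9 and 592 to 331, 410.0, 323 and 416 (-0.57 ± 0.18). ugt-26 rose from 107, 157, 175 and 195 to 352, 308, 315 and 287 (1.02 ± 0.19), and its neighbour ugt-25 from a range of 351 to 394 on empty vector to one of 548 to 590.2 on RNAi (0.60 ± 0.14). ugt-22, the leading member, rose from 1379, 1681, 1460.4 and 1483 to 1965, 2297, 1902 and 1868 (0.42 ± 0.10) with no overlap, while in wild type it stayed at 1555 to 1651 and 1485 to 1637. ugt-12, the first gene of the largest run, rose from a range of 608 to 695 on empty vector to one of 877 to 1010.3 on RNAi (0.53 ± 0.07). The 32 rises ranged from 0.16 to 2.80, and 12 of them were at least 2-fold (the share of all genes at that size is not given here). The upper end was ugt-24, which went from 0, 10.7, 11.0011 and 18.2 to 48.6, 52.4, 32.9 and 69.3. The value of 0 was in library 1, the shallowest of its group, and without that library the change was 1.85 ± 0.30 (adjusted p = 2.13e-06). Without it, ugt-11 went from 1.35 to 0.78 ± 0.15 and ugt-26 from 1.02 to 0.85 ± 0.19, below 2-fold but still called. The others of the 12 stayed at least 2-fold. ugt-7 and ugt-39 changed sign after quantile normalization.

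The rise in raga-1 came with changes in markers of other tissues in the same libraries. Of 14 intestinal markers 9 rose and 1 fell, where 38.2% of all tested genes rose and 33% fell, and their summed normalized counts ran from 59065 to 65043 on empty vector and from 88275 to 94551 on RNAi. All 7 pharynx, 7 neuron and 6 body wall muscle markers tested rose, as did 8 of 9 of hypodermis, while 11 of 12 oocyte and germline markers fell, with sums of 158958 to 172387 on empty vector and 83260 to 95893 on RNAi. Of 4 glia markers 2 rose, and of 3 embryo markers 1 fell. All 19 sperm markers rose in raga-1, as did 17 of them in wild type, 19 in clk-1, 16 in age-1 and 16 in eat-2. In wild type under RNAi, 6 of the 12 oocyte and germline markers fell, and 1 intestinal marker rose and 6 fell (58312 to 68693 on empty vector, 57273 to 59311 on RNAi). The part of these tissue shifts in the ugt changes was not tested. Every library of the germline sum on RNAi lay below every one on empty vector in raga-1, and every library of the intestinal sum lay above.

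Library 1 of raga-1 on empty vector was the shallowest of its group, at 7.69 M reads, and had the lowest ugt-2 (13.3) and ugt-19 (8.002) values of that group. Without it, 25 members rose and 2 fell in raga-1 under RNAi, and 31 differences from wild type were positive and 0 negative. Library 3 of raga-1 on RNAi carried a pool tag and a later date in its library name that no other library carried. Leaving it out changed no call among the named values.

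Against wild type on empty vector, the clk-1 mutant held several members at many times the wild type level. Of the 52, 18 were higher in clk-1 and 16 lower, where 27.8% of all genes were higher and 30.4% lower. Of these, 14 of the rises and 10 of the falls were at least 2-fold (the share of all genes at that size is not given here). ugt-62 stood at 11317, 10943, 11232 and 9509.9 in clk-1 and 1151, 941, 1104 and 1012 in wild type, a 10.2-fold difference (3.35 ± 0.07, adjusted p = 2.33e-30). It alone made up 44.5% ± 0.85 (SD, n = 4) of the summed ugt counts in clk-1, against 9.08% ± 0.60 in wild type. Without it the family sum was 13388 ± 703 in clk-1 and 10526 ± 408 in wild type.

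ugt-61 (chromosome V, positions 4742422 to 4745373, plus strand) stood at 1760.4, 1634, 1675 and 1539.9 in clk-1 and 221, 226, 238 and 231 in wild type, a log2 fold change of 2.84 ± 0.08. ugt-19 stood at 787, 693, 815 and 699.5 against 75.7, 70.0, 87.9 and 64.9 (3.31 ± 0.31), and ugt-2 at 643, 584, 529 and 386 against 67.1, 49.7, 52.7 and 58.7 (3.19 ± 0.26). In all of these the lowest clk-1 library was several times the highest wild type library. For ugt-19 and ugt-2 the mean passed the minimum for named members only through the clk-1 groups, so naming them favoured a clk-1 rise in advance. Their highest group means elsewhere were 101 for ugt-19 (eat-2 on RNAi) and 74.6 for ugt-2 (eat-2 on empty vector). ugt-12 and ugt-13, at the ends of the largest run, were 2.91-fold and 3.46-fold higher, with ugt-12 at 2160.4, 2006, 2148 and 2092 and ugt-13 at 894, 950.0, 846 and 830.2. ugt-9, within the same run, was lower, with a log2 fold change of -1.88 ± 0.19. ugt-50 (1.69 ± 0.16) and ugt-66 (3.01 ± 0.36) were higher as well.

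**Figure D4:**
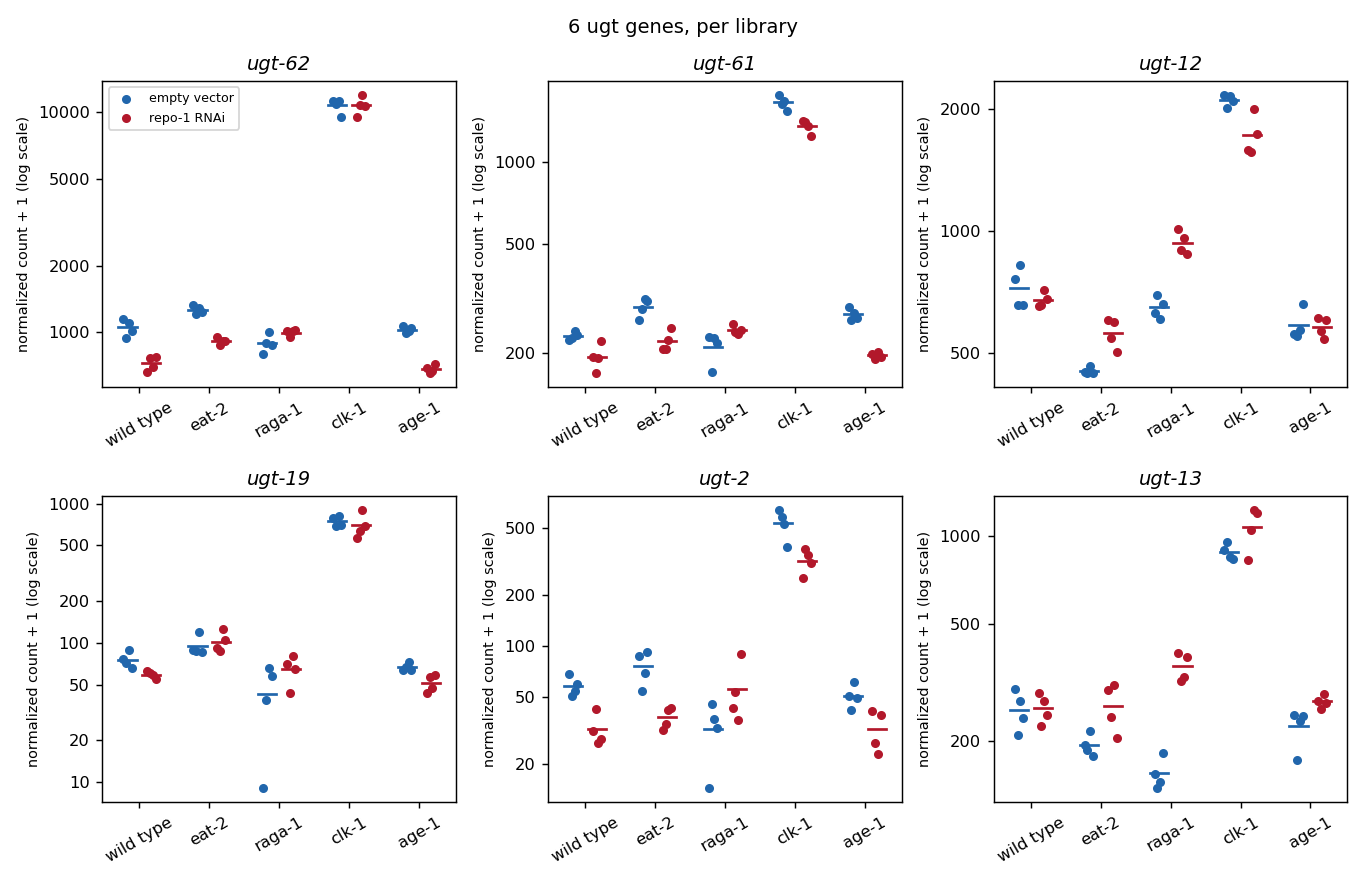
Normalized count plus 1 on a log axis in every library of ugt-62, ugt-61, ugt-12, ugt-19, ugt-2 and ugt-13, by genotype, with empty vector in blue, repo-1 RNAi in red and bars at the group means plus 1. In all 6 panels the clk-1 points stand above those of the other 4 genotypes, and for ugt-62 the 2 clk-1 groups lie together at 10750.5 and 10748 on average.

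Among the 16 members lower in clk-1, ugt-25 stood at 38.8, 41.7, 37.8 and 30.7 in clk-1 and 158, 177, 136 and 233 in wild type (-2.19 ± 0.14), and ugt-41 at 117, 119.8, 104 and 61.5 against 318, 284, 328 and 311 (-1.66 ± 0.15). ugt-32 (-1.42), ugt-22 (-1.17), ugt-63 (-1.11) and ugt-64 (-1.08) were lower too, all without overlap of the groups. Intestinal markers in clk-1 did not move one way (5 of 14 higher and 5 lower), while their sum ran from 77786 to 90303 against 58312 to 68693 in wild type. All 12 oocyte and germline markers and 18 of 19 sperm markers were lower in clk-1. The part of these shifts in the ugt differences was not tested.

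RNAi in clk-1 was measured against the same empty vector libraries. ugt-25 rose from 38.8, 41.7, 37.8 and 30.7 to 78.6, 68.0, 62.7 and 61.4 (0.85 ± 0.14), with no overlap, ugt-26 from 77.6, 79.2, 73.0 and 44.8 to 107, 152, 99.1 and 125 (0.82 ± 0.19), and ugt-22 from a range of 661 to 773 on empty vector to one of 891 to 1081 on RNAi (0.49 ± 0.10). Differences from the wild type RNAi effect were called in 15 members upward and 2 downward (all genes 13.7% and 9.9%), and the count of 17 fell to 11 without replicate 4. For ugt-25 the difference was 1.07 ± 0.20 (adjusted p = 9.63e-05). For ugt-66, which rose in wild type, it was -1.66 ± 0.50 (adjusted p = 0.0139), a call lost without replicate 1 or 4 (adjusted p = 0.114 and 0.192). ugt-2 fell in clk-1 under RNAi from 643, 584, 529 and 386 to 251, 376, 343 and 308 (-0.73 ± 0.26, lost without replicate 1, 2 or 3), and ugt-61 (-0.29) and ugt-12 (-0.30) fell too. Of the markers in the same comparison, all 19 of sperm rose, 5 of 9 of hypodermis rose and 4 fell, 6 of 14 of intestine rose and 5 fell, and 4 of 12 of oocyte and germline rose and 5 fell. The shares of all genes were 23.8% and 22.5%. The summed intestine counts rose without overlap (77786 to 90303 on empty vector, 98098 to 121900 on RNAi). So did those of hypodermis (114654 to 123716, 159797 to 166594) and body wall muscle (55677 to 62690, 85267 to 98900). Neurons rose likewise (2470 to 2639, 2887 to 3160). The oocyte and germline sum fell without overlap (145233 to 154700, 117175 to 129810). The part of these shifts in the ugt changes was not tested.

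In eat-2 on empty vector 14 members were higher and 16 lower than in wild type (all genes 27.2% and 29.8%), but after quantile normalization 8 were higher and 25 lower. ugt-32 was 13.8-fold higher (3.79 ± 0.18) and ugt-31 3.03-fold higher (1.60 ± 0.16), with counts of 203, 206, 177 and 183 against 62.8, 69.1, 59.3 and 59.9. ugt-50 was higher too (0.99 ± 0.16). In the other direction, ugt-63 stood at 71.0, 45.1, 64.8 and 105 in eat-2 and 559, 463, 579.9 and 592 in wild type (-2.98 ± 0.18), and ugt-41 at 62.5, 55.7, 58.7 and 59.1 and 318, 284, 328 and 311 (-2.37 ± 0.15). Neither pair of groups overlapped. All 12 oocyte and germline markers were lower in eat-2 than in wild type, while 6 of 7 of pharynx, 6 of 7 of neurons, 3 of 4 of glia and 6 of 14 of intestine (1 lower) were higher, and the part of these shifts in the ugt differences was not tested.

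ugt-64 was lower in eat-2 as well, at 584, 458, 332 and 324 against 1049, 1077, 1094 and 1197 (-1.42 ± 0.14). Under RNAi ugt-26 rose in eat-2 from 177, 190.3, 201 and 185 to 369.9, 343, 305 and 353 (0.86 ± 0.19), while in wild type it went from a range of 116 to 136 on empty vector to one of 102 to 112 on RNAi (-0.22 ± 0.19). The difference of 1.07 ± 0.27 was called (adjusted p = 0.00556), and lost without replicate 2 (adjusted p = 0.061). Differences from the wild type RNAi effect were called upward in 8 members and downward in 2 in eat-2 (all genes 3.98% and 6.73%), or 11 and 1 after quantile normalization.

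raga-1 on empty vector had 15 members higher and 14 lower than wild type (all genes 19.7% and 26.4%), or 12 and 17 after quantile normalization. The largest rise was that of ugt-66, 22.7-fold (4.50 ± 0.36), a member whose mean passed the minimum of 100 for naming through the raga-1 groups alone. It was followed among named members by ugt-32 (2.24 ± 0.18) and ugt-31 (1.73 ± 0.16), whose means passed that minimum through the raga-1 and eat-2 groups. ugt-25 and ugt-41 were higher by 1.10 and 0.92. Lower were ugt-19 (-1.15 ± 0.31), ugt-2 (-0.96 ± 0.26) and ugt-13 (-0.72 ± 0.13). The first 2 rest in part on library 1 of raga-1: without it they were -0.51 and -0.61 (adjusted p = 0.0185 and 0.0386). The means of ugt-19 and ugt-2 passed the minimum for naming through the clk-1 groups. ugt-13 counts were 155, 138, 144 and 182 in raga-1 and 299.5, 210.0, 273 and 239.7 in wild type, without overlap. In the same libraries, summed body wall muscle markers ran from 97892 to 120364, against 74736 to 89062 in wild type. Hypodermis (145681 to 164805, against 119784 to 137929) and pharynx (5724 to 6155, against 4431 to 5261) were higher too. Oocyte and germline were lower (158958 to 172387, against 177859 to 186646), and intestine overlapped (59065 to 65043, against 58312 to 68693). The part of these shifts in the ugt differences was not tested.

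In age-1, 3 members were higher than in wild type (ugt-6, ugt-61 and ugt-66) and 9 lower. These were 5.77% and 17.3% of the 52, where 4.76% of all genes were higher and 3.72% lower. ugt-64 (chromosome V, positions 3503080 to 3506352, minus strand) had the largest change of the 12, 368, 306, 413 and 384 in age-1 against 1049, 1077, 1094 and 1197 in wild type (-1.59 ± 0.14, adjusted p = 1.78e-10). ugt-22 was lower (-0.54), at 992, 923, 1314 and 1208, and so was ugt-48 (-0.46), at 97.5, 80.2, 88.7 and 88.2 (lost without replicate 3, adjusted p = 0.0604). ugt-61 was higher by 0.26 ± 0.08, at 294, 263, 279 and 266, a call lost without replicate 1, 3 or 4 (adjusted p = 0.225, 0.101 and 0.0748), and the call of ugt-66 (1.31 ± 0.36) was lost with edgeR (0.0901). No member's RNAi effect in age-1 was called different from that in wild type (0 of 52; 7 at an unadjusted p under 0.05, and 0 with edgeR), where 0.00811% of all genes were called higher and 0.0% lower. On empty vector, summed body wall muscle markers ran from 92035 to 108723 in age-1, against 74736 to 89062 in wild type. The marker sums of the other tissues overlapped. The part of this shift in the ugt differences was not tested.

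**Figure D5:**
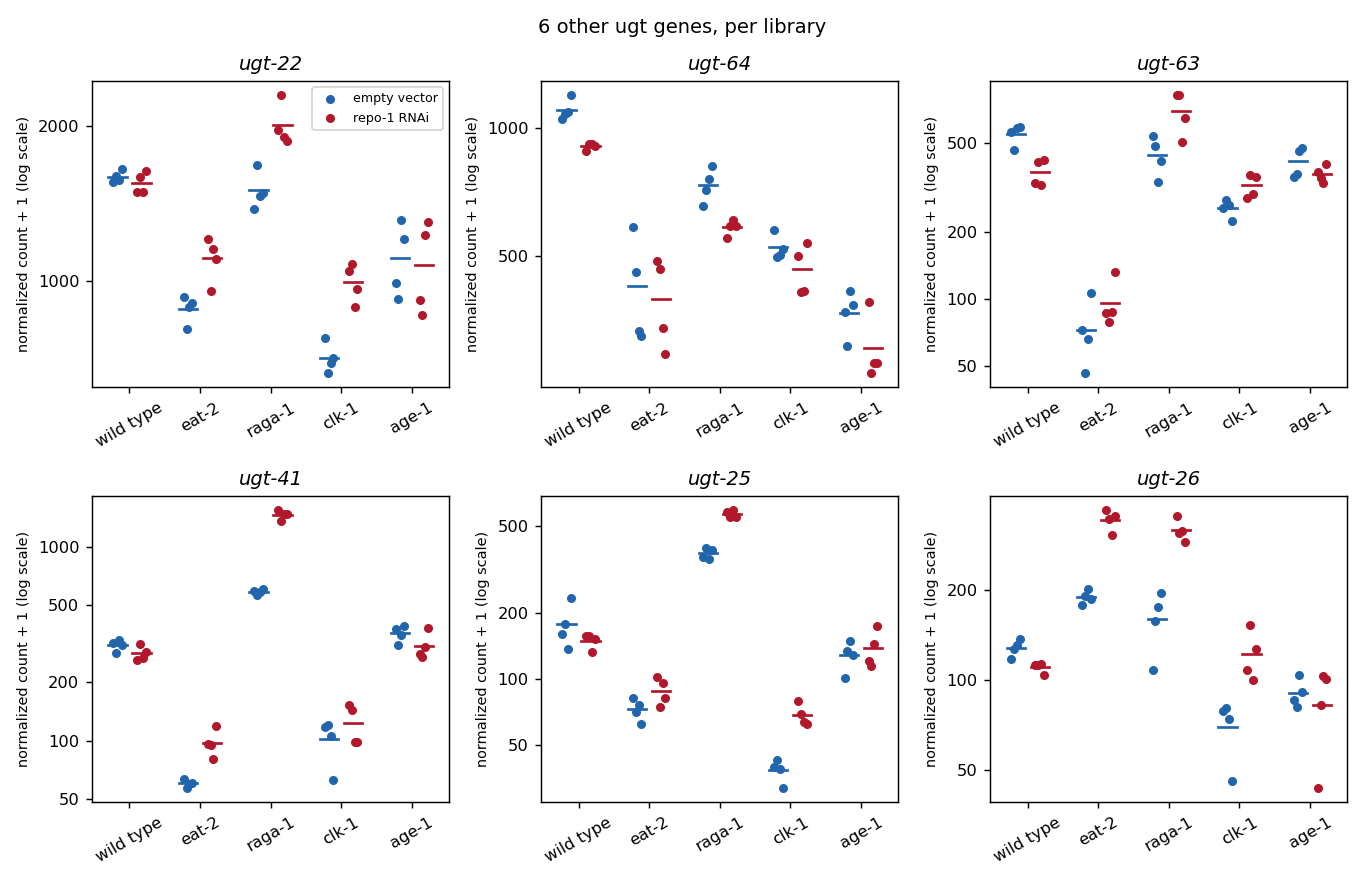
Normalized count plus 1 on a log axis in every library of ugt-22, ugt-64, ugt-63, ugt-41, ugt-25 and ugt-26, by genotype, with empty vector in blue, repo-1 RNAi in red and bars at the group means plus 1. ugt-64 averages 1104 in wild type and 368 in age-1 on empty vector, ugt-63 and ugt-41 are lowest on average in eat-2, and the raga-1 libraries on RNAi stand above all others for ugt-22, ugt-41 and ugt-25.

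Neighbouring members did not always move together. In the run of ugt-26, ugt-27, ugt-28 and ugt-25 on chromosome I (4721131 to 4735276), all 3 tested members rose in raga-1 under RNAi, by 0.39 to 1.02, but in clk-1 on empty vector 1 was higher and 2 lower than in wild type, from -2.19 to 0.78. In the run of ugt-12 to ugt-13, 5 of 6 tested members rose in raga-1 under RNAi, and 5 were lower in eat-2 than in wild type. In clk-1 the same 6 spread from -1.88 to 1.79. For the pair of ugt-19 and ugt-20 the clk-1 changes were 3.31 ± 0.31 and 0.12 ± 0.24, and the second was not called.

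The genes on either side of the family in the pathway were read from lists chosen with earlier results of these data known. Under RNAi the shares of all tested genes that rose and fell, given above, were 10.1% and 12.9% in wild type and 38.2% and 33% in raga-1. Among 55 tested cytochromes P450 (phase 1), 1 rose and 7 fell in wild type under RNAi, and 18 rose and 7 fell in raga-1, where their median was 0.16 but -0.24 after quantile normalization. Of 28 short-chain dehydrogenases (phase 1), 2 rose and 7 fell in wild type, and 11 rose and 7 fell in raga-1 (median 0.24, or -0.05 after quantile normalization). Of 32 glutathione S-transferases, the other large phase 2 family, 2 rose and 5 fell in wild type, and 19 rose and 2 fell in raga-1 (median 0.43, or 0.08 after quantile normalization). gst-24 rose in both, by 2.07 ± 0.20 and 2.81 ± 0.20. Of 21 ABC exporters of the pgp and mrp families (phase 3), 1 rose and 7 fell in wild type, and 17 rose and 2 fell in raga-1, led by pgp-8 (2.73 ± 0.49), with a median of 0.51 (0.35 after quantile normalization). The ugt counts in these comparisons were 2 and 18, and 32 and 2, of 52.

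Of 10 tested enzymes and carriers that supply UDP-sugars, 1 rose and 6 fell in raga-1 under RNAi (median -0.28, or -0.20 after quantile normalization), and 0 rose and 4 fell in wild type. sqv-4, the UDP-glucose dehydrogenase that makes UDP-glucuronic acid, fell in raga-1 (-0.66 ± 0.04), as did sqv-7, a carrier of nucleotide sugars into the Golgi, in raga-1 (-0.51 ± 0.12) and in wild type (-0.55 ± 0.12). nstp-6, a member of the nucleotide sugar transporter family, was the one that rose (1.63 ± 0.32).

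Of 22 tested regulators of detoxification genes, 12 rose and 4 fell in raga-1 under RNAi, and 0 rose and 2 fell in wild type (shares of all genes as given for the lists above). The nuclear receptor gene nhr-8, required for resistance to some xenobiotics, fell in wild type (-0.74 ± 0.20), and in clk-1 on empty vector it was higher than in wild type (1.44 ± 0.20). The zinc finger gene pqm-1 was higher in clk-1 as well (1.39 ± 0.14). In that comparison 23 of 55 cytochromes P450 were higher and 19 lower, where 27.8% of all genes were higher and 30.4% lower, and the largest rises on the list were in cyp-13A7 (7.58 ± 0.49), cyp-13A5 (5.99 ± 0.20) and cyp-13A8 (5.73 ± 0.54). Of the 21 exporters, 6 were higher and 8 lower there (median -0.06), pgp-9 (2.44 ± 0.10) and pgp-1 (1.92 ± 0.19) among those higher. Of 11 tested genes on a list of oxidative stress targets of the factor SKN-1, which shares several gst genes with the list above, 4 rose and 1 fell in raga-1 under RNAi (median 0.25, or -0.10 after quantile normalization), and 0 rose and 1 fell in wild type.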

How the data were processed

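Poly(A) RNA of whole day 1 adults was sequenced in 40 libraries prepared with a stranded Kapa kit, per the labels' protocols. The submitters' processing notes list, with no roles, Salmon 0.14.2, STAR, DESeq2, FastQC 0.11.8, MultiQC and the build WBcel235. The deposited values are a signal per gene that the authors had scaled by library, here called normalized counts. The step between low values returned whole reads for 100% of values within 0.01 of a whole number, although in clk-1 RNAi library 1 and age-1 RNAi library 4 the step was near 1 and the check carried little information.

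limma 3.58.1 (R 4.3.3) was fitted with trend to log2(value + 1) of 12327 genes, those whose mean across all 40 libraries reached 10, with 1 mean per group. Comparisons were RNAi against empty vector in each of 5 genotypes and on average, each of 4 mutants against wild type on empty vector, and the difference of each mutant's RNAi effect from that of wild type. p-values were Benjamini-Hochberg adjusted within each of the 14 comparisons and called under 0.05. The 4 mutant comparisons share the wild type empty vector libraries, as do the differences, so they were not set against one another. Scripts were tested on simulated data. Figures used matplotlib 3.10.9 and tables pandas 2.3.3.

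Members named with full values were those called with a mean of at least 100 and the largest changes (for the average RNAi effect, up to 6 each way with 1 sign in all 5 genotypes; for each comparison of groups, up to 3 each way without overlap of libraries; for each difference of effects, up to 2 each way), plus the 6 highest per kb in wild type. From the other gene lists, up to 3 called genes with the largest changes were named. The members and lists were chosen with earlier results of these data known. Positions and exon lengths are from Ensembl release 115, which matched all 66 members by ID and symbol.

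Alternatives were a pseudocount of 5, no filter on low values, quantile normalization, the replicate number as a block, edgeR 4.0.16 on recovered reads, leaving out each replicate number, batches 1 and 2 alone, batches 3 and 4 alone, and leaving out raga-1 RNAi library 3. The labels give the replicate number as the batch, so libraries of 1 number share a batch. In the library names, batches 1 and 2 carry 1 pool tag and batches 3 and 4 another, apart from raga-1 RNAi library 3. The fits on batches 1 and 2 alone and on batches 3 and 4 alone therefore follow that split. Of the 20 pairs of RNAi and empty vector libraries of 1 genotype and number, 9 had deviations from their group means that correlated over 0.1 (-0.0627 to 0.256, median 0.0968), and 13 empty vector libraries correlated best with their own number. Leaving out raga-1 empty vector library 1 was added after seeing the data. Sequences were not used here.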

Additional observations from a re-analysis of the deposited data

Results flagged for a closer look

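In 9 of the 220 sets of 4 libraries read for the 22 named members (4.09%), 1 library lay farther from the others than Dixon's critical value of 0.829 allows, where chance gives about 1 in 20. In wild type these were ugt-31 on RNAi (library 4 at 99.1, the others 76.1 to 79.6), ugt-26 on RNAi (library 4 at 102, the others 111 to 112) and ugt-58 on empty vector (library 2 at 633, the others 715 to 726). In eat-2 they were ugt-63 on RNAi (library 4 at 131, the others 77.3 to 85.8), ugt-19 on empty vector (library 3 at 117, the others 84.3 to 87.5) and ugt-12 on empty vector (library 3 at 464, the others 445 to 448). In age-1 they were ugt-13 on empty vector (library 2 at 172, the others 234 to 246), ugt-64 on RNAi (library 1 at 389, the others 264 to 279.7) and ugt-47 on RNAi (library 1 at 561, the others 425 to 431).

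The RNAi effect differed from that in wild type, by the test of the difference itself (limma), in 10 members for eat-2, 38 for raga-1 and 17 for clk-1. Of all tested genes, 3.98% were called up and 6.73% down for eat-2. The shares were 28.4% and 27.2% for raga-1, and 13.7% and 9.9% for clk-1. These counts share the wild type libraries and were not set against one another. The rule for naming takes up to 2 each way per mutant and gave 8 pairs of a member and a mutant. In eat-2 the differences were 1.07 ± 0.27 for ugt-26 (adjusted p = 0.00556), 1.00 ± 0.26 for ugt-63 (0.00708) and -0.44 ± 0.14 for ugt-23 (0.0458). In raga-1 they were 1.69 ± 0.37 for ugt-2 (0.000287) and 1.46 ± 0.21 for ugt-41 (5.04e-07). In clk-1 they were 1.07 ± 0.20 for ugt-25 (9.63e-05), 1.04 ± 0.27 for ugt-26 (0.00362) and -1.66 ± 0.50 for ugt-66 (0.0139). Of these, ugt-63 in eat-2 lost the call without replicate 3 (adjusted p = 0.0652), ugt-26 in clk-1 without replicate 4 (0.0878), and ugt-23 in eat-2 without any 1 of the 4 replicates.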

How the results depend on the processing

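Among 65 named values under 13 alternatives each, 788 of 845 kept their direction and side of the threshold, 57 kept their direction and lost the call, and 0 reversed. The 65 values were chosen as called in the main fit with the largest changes, and every alternative reuses the same libraries. That choice favoured the lack of reversals in advance. Outside it, ugt-7 and ugt-39, called in raga-1 under RNAi, changed sign after quantile normalization. Of 182 counts of members called, 166 stayed within 1.5 times the reported count. Quantile normalization took the raga-1 difference from 38 to 24. With batches 1 and 2 alone the RNAi counts were 8 in wild type (20 with all), 16 in eat-2 (26) and 2 in age-1 (17), age-1 against wild type gave 6 (12), and the differences gave 3 for eat-2 (10), 24 for raga-1 (38) and 5 for clk-1 (17). With batches 3 and 4 alone the RNAi counts were 17 in eat-2 and 21 in raga-1 (34), age-1 against wild type gave 5, and the differences gave 6 in eat-2 and 22 in raga-1. These fits hold fewer libraries. Leaving out 1 replicate number, or raga-1 RNAi library 3 or raga-1 empty vector library 1 alone, gave RNAi counts of 13 to 24 for wild type, 20 to 30 for eat-2, 26 to 33 for raga-1, 16 to 22 for clk-1 and 8 to 19 in age-1. The counts of differences became 7 to 11 for eat-2, 28 to 34 for raga-1, 11 to 19 for clk-1 and 0 for age-1, and age-1 against wild type became 8 to 12.

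With the replicate block (the replicate number is the batch) the RNAi counts of members up and down were 2 and 18 in wild type, 31 and 2 in raga-1, and the raga-1 difference gave 38 and 0. The block moved no count of members by over 1.5 times and changed none of the 65 named calls. Members near the minimum, 6 of which were listed at 0 in at least 1 library, are limited by depth.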

Other observations

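Some tested members with low means, chosen here after their values were seen, differed between groups as well. ugt-57 fell under RNAi in eat-2 from 113.1, 94.8, 89.2 and 99.8 to 16.3, 15.8, 13.5 and 18.05 (-2.57 ± 0.35) and in clk-1 from 70.7, 66.7, 66.2 and 55.1 to 4.03, 2.47, 3.87 and 4.91 (-3.79 ± 0.35). In raga-1 it was scarce and rose from 0, 1.34, 1.38 and 2.80 to 4.42, 7.76, 5.70 and 11.7 (1.90 ± 0.35), a call lost after quantile normalization, and in wild type it went from 12.9, 9.28, 9.88 and 3.74 to 12.3, 7.90, 14.6 and 11.8 (0.42 ± 0.35, not called). On empty vector its level was above wild type in eat-2 (3.43 ± 0.35) and clk-1 (2.82 ± 0.35) and below it in raga-1 (-2.11 ± 0.35). The mean of ugt-57 passed the minimum of 10 only through eat-2 and clk-1 on empty vector (99.2 and 64.7), the groups in which it was high.

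ugt-18, whose mean passed the minimum of 10 through the clk-1 groups, stood at 34.2, 13.5, 33.5 and 28.2 in clk-1 and 0.861, 3.37, 0 and 2.50 in wild type on empty vector (3.54 ± 0.60). ugt-6 stood at 141, 116, 118 and 117 in raga-1, 46.8, 44.2, 59.4 and 57.3 in age-1 and 21.5, 16.02, 34.0 and 21.2 in wild type on empty vector, with log2 fold changes of 2.41 ± 0.20 and 1.17 ± 0.20. Its neighbour ugt-4 was listed at 0 in several libraries: on empty vector wild type gave 39.6, 33.7, 37.3 and 33.7 and on RNAi 0, 45.4, 0 and 0 (-3.83 ± 1.17). The 1 high library among the 4 on RNAi (45.4) lay above every empty vector library, and the other 3 were at 0.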
